A study of Mus musculus with 12 samples.

Results

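The genes that build the receiving side of glutamate synapses were followed with age in RNA from C57BL/6 mice, in whole hippocampus and in hippocampal microglia. They are 37 genes, taken by symbol: 4 AMPA, 6 NMDA and 5 kainate receptor subunits, the delta subunit Grid1, 6 metabotropic receptors, 4 Dlg, 4 Dlgap, 3 Shank and 2 Homer scaffold genes, and 2 genes of CaM kinase II. All 37 have an entry among the 14663 genes of the hippocampus table and the 29957 genes of the microglia table. Whole hippocampus was taken from mice aged 18 or 6 months, and hippocampal microglia from mice aged 24 or 3 months, with 3 libraries in each of the 4 groups. All animals carry the same strain name, and the labels name no mutation or treatment besides age. The labels say neither that the libraries of a group came from separate mice nor how the microglia were isolated, so p-values measure only the spread between these libraries.

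Glutamate released by one neuron opens AMPA and kainate receptor channels on the next neuron and, once that neuron is depolarised, NMDA receptor channels, which let calcium in. Metabotropic glutamate receptors act more slowly through G proteins. The channels are held in the postsynaptic density by a layered scaffold: Dlg proteins bind receptor tails, Dlgap proteins bind Dlg and Shank, and Homer links Shank to group I metabotropic receptors. CaM kinase II is an abundant enzyme of that density, is activated by calcium and calmodulin, and is required for long-term potentiation in hippocampal neurons.

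Some libraries differed in ways that age does not explain. In whole hippocampus the summed level of 10 choroid plexus markers ran from 251 to 11088 normalized counts at 18 months and from 117 to 7019 at 6 months, so both ages held libraries with much and with little of this neighbouring tissue. Pan-neuronal markers summed to 8663 to 9182 normalized counts at 18 months and 8537 to 9325 at 6 months. In microglia, replicate 1 of 24 months carried the most blood cell marker RNA (2692.5 CPM, against 740.0 and 803 in the other 24 month libraries), and replicate 1 of 3 months had the fewest genes above 0 (11872, against 12541 to 13957 in the other 5 libraries). Totals per microglia library were 8072855 to 14226478 estimated counts. The hippocampus columns sum to 974372 to 1002839 normalized counts, and their depth in reads is unknown.

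In whole hippocampus 30 of the 37 genes had a value above 0 in every library. The levels of different genes were compared per kilobase, as mean normalized count over the 6 libraries divided by the length of the longest annotated transcript. On this scale Camk2a, the alpha subunit of CaM kinase II, was far above the others at 1641 per kb, and its beta subunit Camk2b followed at 187. Gria1 (119), Gria2 (91.7), Grin1 (64.6) and the scaffold gene Dlgap1 (54.4) came next. Grm4 (0.420), Grin2d (0.289) and Grin2a (0.134) were at the bottom. The order below Camk2a depended on the length used: with the mean length given in the microglia table, Gria2 stood next to Camk2a at 239 per kb and Camk2b stood just under it at 223, while Dlg4 moved up to 87.8 per kb from 9.67 and Shank3 to 20.1 from 1.59.

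**Figure D1:**
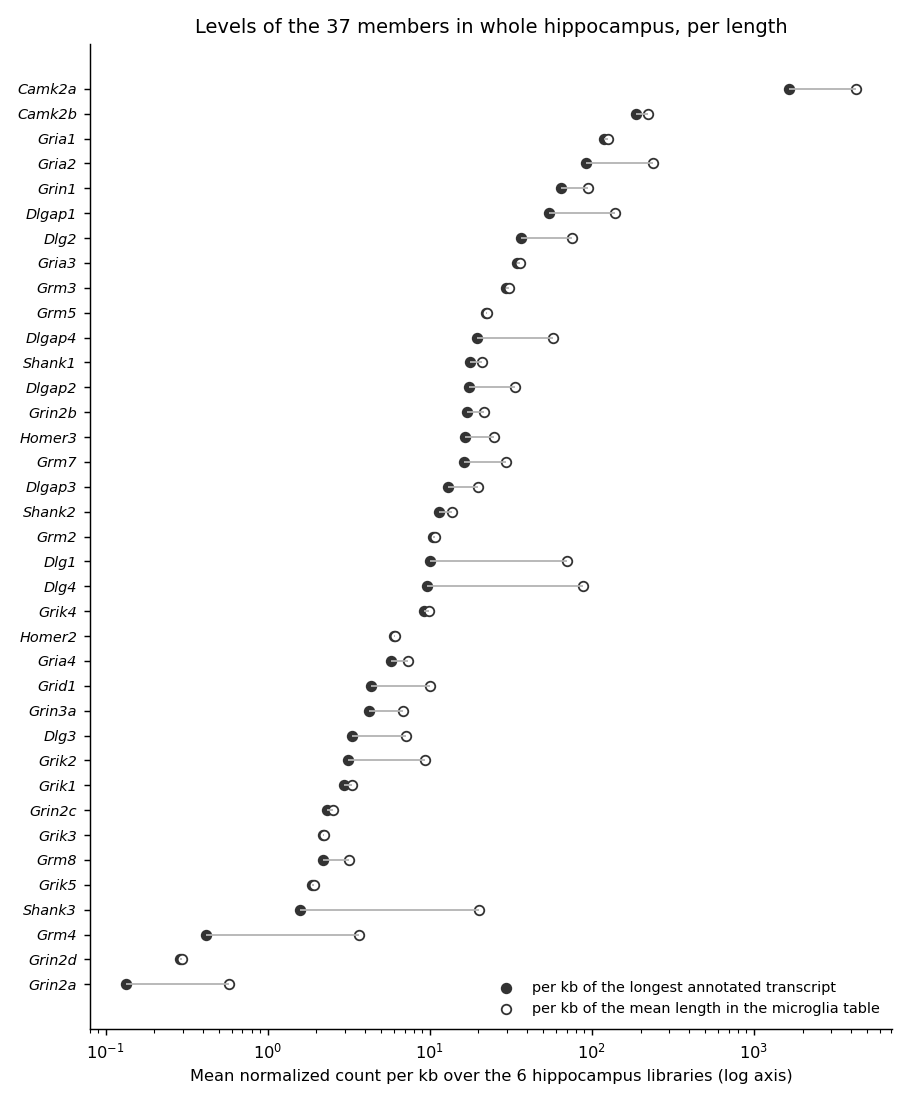
Mean normalized count per kb over the 6 hippocampus libraries (log axis) for each of the 37 genes; filled points use the longest annotated transcript and open points the mean length of the microglia table. Camk2a lies far to the right of all other genes with either length, and Dlg1, Dlg4, Shank3 and Grm4 have the widest gaps between both points.

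The 7 genes listed at 0 in at least 1 hippocampus library were Grin2a, Grin2d, Grik1, Grik5, Grm4, Grm8 and Shank3. Grin2a, an NMDA receptor subunit widely present in the adult forebrain, was listed at 0, 1.26 and 3.49 normalized counts at 18 months and at 0, 7.04 and 0 at 6 months. Grin2d had 0 in all 3 libraries of 18 months and 5.66, 0 and 3.76 at 6 months. Grm4 had 11.6 in replicate 3 of 18 months and 0 in the 5 other libraries. Zeros also occurred in genes of moderate level outside this set: 505 of 9886 genes with a mean of at least 10 (5.11%) had a 0 in some library, as had 9 of 4259 genes with a mean of at least 50 (0.211%). The means of Grin2d (1.57), Grm4 (1.93), Grin2a (1.97), Grik5 (7.06) and Grm8 (8.41) lie below both limits. A value of 0 in these genes is taken here as a listing, and whether it is a true absence was not tested.

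For most of these genes the 18 and 6 month hippocampus overlapped. Of the 35 genes that passed the filter on low values, 0 passed an adjusted p of 0.05 in limma's moderated test, and 0 of all 13491 tested genes did (0%). The smallest adjusted p was 0.877 among the 35 genes, for Homer2, and 0.155 among all genes. At an unadjusted p under 0.05 there were 4 of 35, namely Homer2, Grm8, Grm5 and Camk2a, beside 725 of 13491 genes (5.37%). Which genes these were depended on the fit. In limma without its mean trend, p was 0.375 for Camk2a, 0.148 for Grm5, 0.0603 for Homer2 and 0.0217 for Grm8. In the authors' deposited table the Wald test's p was under 0.05 for 5 genes of the set. It was 0.00809 for Homer2, 0.0207 for Grm8, 0.0215 for Grm5, 0.0278 for Gria2 and 0.0418 for Grin3a, and 0.149 for Camk2a. The fitted log2 change was above 0 for 16 and below 0 for 19 of the 35, with a median log2 change of -0.01, beside a median of -0.04 over all genes. In this bulk tissue fewer cells of a type and less RNA per cell cannot be told apart.

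The 3 libraries of 18 months lay wholly above or wholly below those of 6 months for 7 of the 35 genes (20%), beside 11% of all tested genes. Camk2a, Homer2, Grin2c and Grm8 lay above, beside 5.03% of all genes in that direction, and Gria2, Grm5 and Grin3a lay below, beside 5.93%. The count of genes that lay below was 5 without replicate 1 or without replicate 3 of 18 months. Groups of fewer libraries come apart more easily, and the share of all genes was not computed there. In the authors' deposited table, 36 of 11819 genes with an adjusted p passed 0.05 (0.305%), and 0 of the 34 such genes of this set did; the smallest adjusted p there was 0.378, for Homer2.

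**Figure D2:**
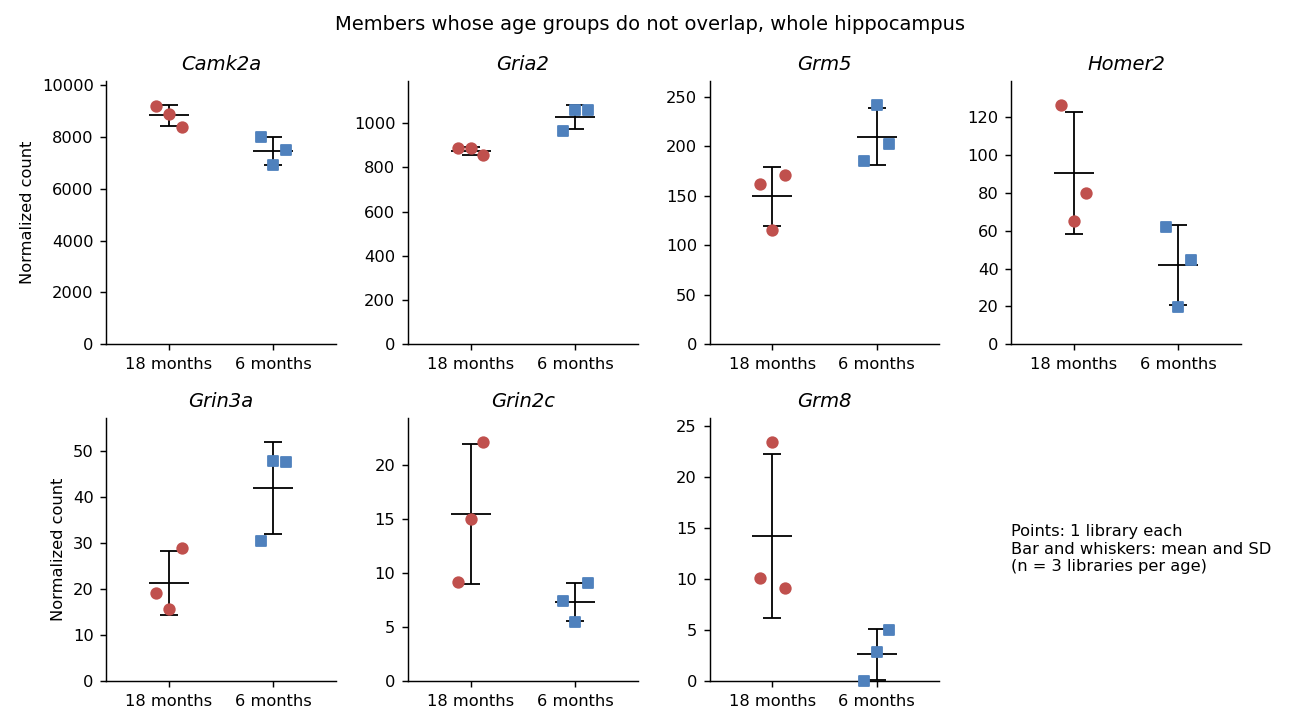
Normalized counts of the 7 genes whose 18 month libraries (red circles, left) did not overlap those of 6 months (blue squares, right); each point is 1 library, and bars show mean and SD (n = 3). Camk2a, Homer2, Grin2c and Grm8 are higher at 18 months and Gria2, Grm5 and Grin3a are lower, and Grm8 and Grin2c stay under 24 normalized counts in every library.

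AMPA receptors carry most of the fast current at glutamate synapses, and the GluA2 subunit, the product of Gria2, makes the channel nearly impermeable to calcium after RNA editing. Gria2 (chromosome 3, 80681450 to 80802835, minus strand, GRCm38) had 886, 887 and 854 normalized counts at 18 months, against 963, 1059 and 1058 at 6 months. Every 18 month library was below every 6 month library, and the log2 change was -0.23 ± 0.12 (SE; limma adjusted p = 0.909). Gria1, which encodes the other main hippocampal AMPA subunit, had 707, 602 and 687 at 18 months and 647, 674 and 636 at 6 months. These values overlap, and the log2 change of 0.03 has a 95% interval from -0.26 to 0.31. Gria3 also overlapped, at 126 to 252 normalized counts at 18 months and 175 to 191 at 6 months, as did Gria4, at 21.2 to 53.7 at 18 months and 22.3 to 42.6 at 6 months.

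The Gria2 promoter is known for a binding element of the neuronal repressor REST, called RE1, and its sequence is shown because a match was found there and in no other gene of the set with a promoter entry. RefSeq's promoter table (GRCm38.p6) held 37 promoters for 24 of the 37 genes. The RE1 core, with any base allowed at a pair of middle positions, was searched on both strands in windows from 250 bases before to 50 bases after each start. The Gria2 window held 1 match, 170 bases before the start, and 17 of all 32851 windows of the same length held it (0.0517%). The line gives the 250 bases before the start, chr3:80802836-80803085, read 5′ to 3′ on the minus strand, with the match, which is on the opposite strand, in capitals.
Gria2 promoter: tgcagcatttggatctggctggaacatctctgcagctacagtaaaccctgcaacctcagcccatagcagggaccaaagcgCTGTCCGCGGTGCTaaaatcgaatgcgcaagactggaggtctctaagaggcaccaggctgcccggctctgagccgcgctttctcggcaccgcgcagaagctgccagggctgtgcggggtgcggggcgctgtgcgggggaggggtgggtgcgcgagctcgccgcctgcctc
The Sp1 letters GGGCGG, by contrast, were in 19 of the 37 windows (17 of the 24 genes), and in 35.7% of all windows. The CRE letters TGACGTCA were in 0 of the 24 genes' promoters, beside 1.79% of all windows.

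NMDA receptors need the obligatory subunit GluN1, encoded by Grin1, together with GluN2 or GluN3 subunits. Grin1 had 343, 258 and 274 normalized counts at 18 months and 297, 262 and 223 at 6 months, which overlap (log2 change 0.16, 95% interval -0.23 to 0.55). Grin2b, the long-tailed GluN2 subunit that dominates early in life, had 215, 316 and 564 at 18 months and 497, 313 and 552 at 6 months. Its libraries spread more than 2-fold within 18 months, and the log2 change was -0.39 ± 0.29 (SE), or -0.063 without replicate 1 and -0.76 without replicate 3 of 18 months. Grin3a, whose GluN3A subunit lowers calcium flow through the receptor and is most abundant in young brain, had 19.1, 15.6 and 28.9 normalized counts at 18 months, against 30.5, 47.9 and 47.7 at 6 months. The groups are apart by a narrow margin between 28.9 and 30.5 (log2 change -0.97 ± 0.46, SE; limma adjusted p = 0.909). Grin2c, better known from cerebellum, had 9.15, 15.0 and 22.1 at 18 months and 7.40, 5.48 and 9.01 at 6 months. The groups nearly touch, and its interval runs from -0.63 to 2.49.

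Kainate receptors modulate release and excitability, strongly at mossy fibre synapses. Grik4, the kainate subunit with the highest level per kb, had 78.0, 39.97 and 41.9 normalized counts at 18 months and 65.2, 44.3 and 55.7 at 6 months. Its groups overlap, as did those of Grik1, Grik2, Grik3 and Grik5. Grik1 and Grik5 had the widest standard errors of the tested set on the log2 scale, 1.27 and 1.29. The delta subunit gene Grid1, whose protein acts as a synaptic organiser, had 10.7, 42.2 and 19.7 at 18 months and 22.4, 29.2 and 24.0 at 6 months, with the 18 month values on both sides of those of 6 months.

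Among the metabotropic receptors, Grm5 encodes the Gq-coupled receptor that Homer proteins tie to the postsynaptic density. Grm5 had 162, 115 and 171 normalized counts at 18 months, against 185, 242 and 202 at 6 months. All 18 month libraries were lower, and the log2 change was -0.50 ± 0.21 (SE; limma adjusted p = 0.890). Grm8, a presynaptic receptor that lowers release, had 10.05, 23.5 and 9.09 at 18 months and 0, 2.84 and 5.02 at 6 months. All 18 month libraries were higher, at a level where a few reads decide the value (log2 change 2.29 ± 0.93, SE; limma adjusted p = 0.883). Grm3, a receptor of neurons and astrocytes with the highest level per kb in the family, overlapped at 88.0, 92.1 and 76.8 at 18 months and 114, 103 and 64.6 at 6 months. Grm2 and Grm7 overlapped too.

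The 4 Dlg genes encode the membrane-associated guanylate kinases that anchor receptors, among them PSD-95, the product of Dlg4. Dlg4 had 41.4, 62.9 and 50.3 normalized counts at 18 months and 87.7, 46.9 and 77.7 at 6 months (log2 change -0.42 ± 0.33, SE). Dlg2, the product of which is PSD-93, had 303, 306 and 218 at 18 months and 318, 278 and 301 at 6 months. Dlg1, which encodes SAP97, had 66.7, 82.0 and 29.9 at 18 months and 73.0, 48.2 and 71.2 at 6 months. All 4 fitted changes were below 0, yet each group overlapped and each 95% interval included 0; leaving out 1 library turned the sign of Dlg1 and Dlg2, with changes of up to 0.23 and 0.03.

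Of the Dlgap genes, Dlgap1 had the narrowest interval of the tested scaffold genes, with 369, 396 and 400.2 normalized counts at 18 months and 364, 415 and 398 at 6 months. Its log2 change was -0.01, with a 95% interval from -0.33 to 0.30. Shank1, which encodes the most abundant Shank of the set per kb here, had 245, 179 and 144 at 18 months and 194, 133 and 148 at 6 months (log2 change 0.24 ± 0.23, SE). The groups overlap, as they did for Shank2, Shank3, Dlgap2, Dlgap3 and Dlgap4.

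Homer2 had the smallest p-value of the set. Its product links group I metabotropic receptors to Shank and to calcium stores. Homer2 (chromosome 7, 81600481 to 81707527, GRCm38) had 126, 65.0 and 79.7 normalized counts at 18 months, against 62.0, 19.6 and 44.3 at 6 months. Every 18 month library was higher, although the closest pair, 65.0 and 62.0, differed little, and the log2 change was 1.18 ± 0.41 (SE; limma adjusted p = 0.877), or 0.72 without replicate 2 of 6 months. The authors' deposited table gives a log2 change of 1.06 with a standard error of 0.400 for Homer2. Homer3 overlapped, with 62.1, 35.7 and 23.8 at 18 months and 37.2, 49.6 and 50.2 at 6 months.

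Camk2a had 9209, 8897 and 8408 normalized counts at 18 months, against 7986, 6904 and 7519 at 6 months. Every 18 month library was higher, and the mean was 8838 ± 404 at 18 months and 7470.0 ± 543 at 6 months (SD, n = 3 each). The log2 change was 0.24 ± 0.11 (SE; limma adjusted p = 0.901). Camk2b had 743, 830.0 and 696 at 18 months and 819, 729.8 and 704 at 6 months, which overlap, and its interval runs from -0.28 to 0.30. Camk2a took 63.6%, 63.9% and 61.7% of the summed normalized counts of all 37 genes at 18 months and 58.8%, 56.9% and 58.2% at 6 months. The sum over the 37 genes was 14012 ± 429.6 at 18 months and 12883 ± 733 at 6 months, without overlap; without Camk2a it was 5174 ± 131 at 18 months and 5413.5 ± 191 at 6 months, with overlap (SD, n = 3 each).

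**Figure D3:**
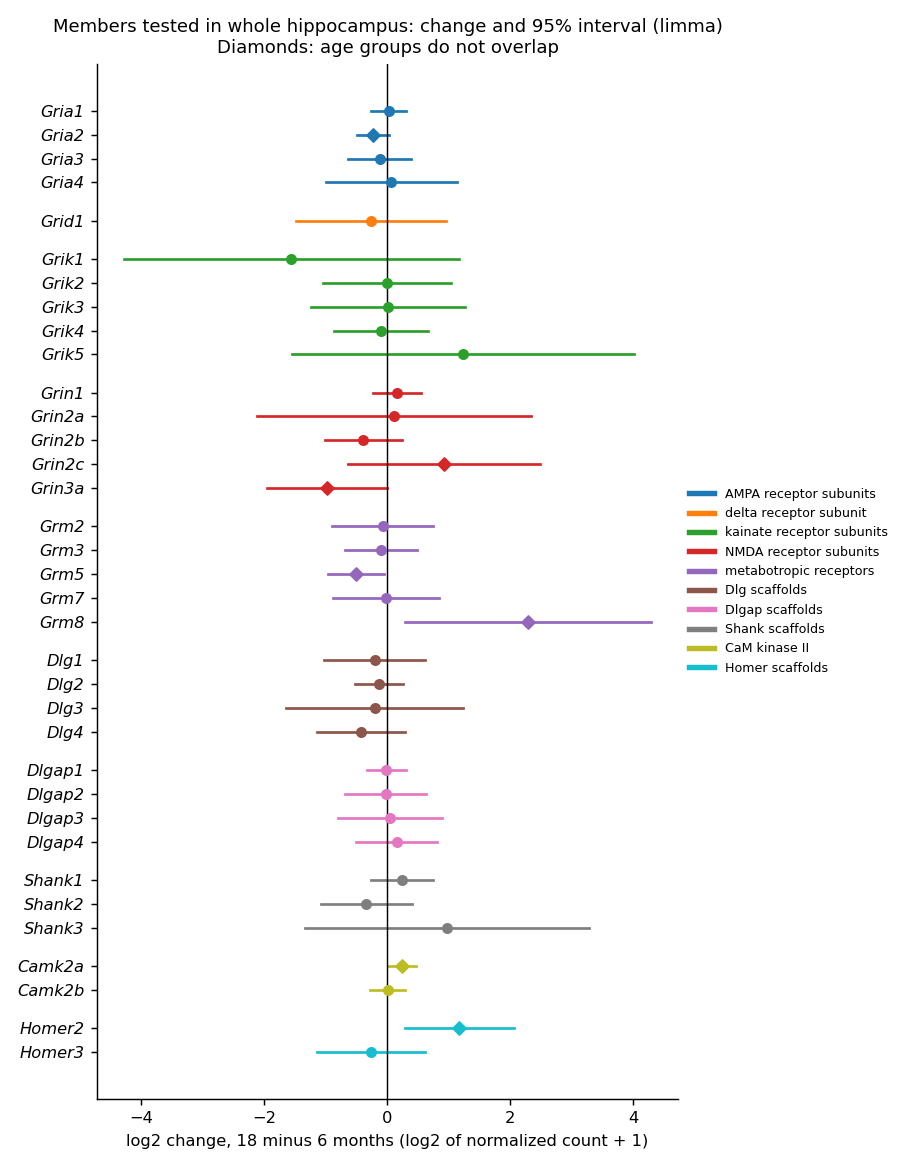
Log2 change from limma, 18 minus 6 months, with its 95% interval for the 35 tested genes, coloured by family; diamonds mark the 7 genes whose age groups do not overlap. The abundant genes Camk2a, Camk2b, Gria1 and Gria2 have short intervals near 0, and the intervals of Grik1, Grik5, Grin2a and Shank3 span more than 4 log2 units.

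In limma with its mean trend, the level of a gene went with how small a change could be seen. That trend draws a gene's variance toward that of genes of like level, so part of this dependence is built into the fit. Without the trend, limma's p for Camk2a was 0.375 in place of 0.0362, at the same log2 change of 0.244. The 12 genes with a mean of 100 or more normalized counts had standard errors from 0.11 to 0.34 on the log2 scale, the 13 genes from 30 to 100 had 0.27 to 0.50, and the 10 below 30 had 0.49 to 1.29. For the lowest genes, changes of 2-fold were not detectable at this precision.

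Ratios between related genes within a library do not depend on the scaling between libraries. Of 5 ratios chosen, 4 could be computed; Grin2a over Grin2b could not, because Grin2a was listed at 0. The Gria1 to Gria2 ratio of normalized counts was 0.798, 0.679 and 0.804 at 18 months and 0.672, 0.636 and 0.601 at 6 months. Every 18 month ratio was higher, with a log2 difference of 0.25 and an exact two-sided permutation p of 0.1 (adjusted over the 4 ratios, 0.2). The Camk2a to Camk2b ratio was 12.4, 10.7 and 12.1 at 18 months and 9.75, 9.46 and 10.7 at 6 months, with a log2 difference of 0.23 and the same exact permutation p of 0.1. The smallest p that 3 against 3 libraries allow is 0.1, so neither could pass 0.05. Dlg4 over Dlg1 and Grm5 over Grm3 overlapped, with log2 differences of -0.22 and -0.40 and exact permutation p-values of 0.6 and 0.4.

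Other genes of the glutamate synapse were read from 5 further lists, and 0 of their genes passed limma's adjusted p. At an unadjusted p under 0.05 there were 3 of 19 auxiliary subunits, 3 of 40 scaffold and adhesion genes, 3 of 30 kinase, phosphatase and calcium signalling genes, and 2 of 12 supply and clearance genes, beside 5.37% of all tested genes. The list on glutamate supply and clearance had a fitted change below 0 for 9 of 12 genes, with a median log2 change of -0.23. Its summed level was 3485, 2907 and 3483 normalized counts at 18 months, against 3663.5, 3760.2 and 3773 at 6 months, without overlap. Slc1a1, the neuronal glutamate transporter EAAC1, had 158 ± 8.79 at 18 months and 257 ± 34.8 at 6 months (SD, n = 3 each; log2 change -0.69, limma adjusted p = 0.866). Glul, the astrocytic glutamine synthetase, had 502 ± 145 at 18 months and 664 ± 37.9 at 6 months, with overlap. Slc17a7, the vesicular transporter VGLUT1, had 133 ± 8.14 at 18 months and 166 ± 6.48 at 6 months, without overlap.

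Kinases, phosphatases and calcium signalling genes had a fitted change above 0 for 17 of 30, with a median of 0.10. Their sum was 17607, 19937 and 18377 normalized counts at 18 months and 16772, 15222 and 16289 at 6 months, without overlap. Camkk1, a kinase upstream of other CaM kinases, had 300.5 ± 31.5 at 18 months and 228 ± 13.0 at 6 months (SD, n = 3 each). The Ras exchange factor gene Rasgrp1 had 497 ± 69.9 at 18 months and 667 ± 124 at 6 months. The calcium sensor gene Hpca had 2033.5 ± 376 at 18 months and 1682 ± 108 at 6 months.

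The auxiliary subunits had a fitted change above 0 for 12 of 19 tested genes, with a median of 0.17. Syndig1, an AMPA receptor-associated membrane protein, had 24.0 to 49.3 normalized counts at 18 months and 72.5 to 84.7 at 6 months (log2 change -1.15, limma adjusted p = 0.877). Cnih3, a cornichon partner of AMPA receptors, had 96.4 to 108 at 18 months and 54.8 to 77.3 at 6 months (0.72, adjusted p = 0.877). Both are apart, in opposite directions. Neto1, an auxiliary subunit of kainate receptors, had 53.9 to 62.7 at 18 months and 75.5 to 112 at 6 months. Prrt1, which belongs to the family of Syndig1, had 32.2 to 55.4 at 18 months and 16.3 to 29.2 at 6 months.

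Among the other scaffold and adhesion genes the fitted change was above 0 for 13 of 40 tested and below 0 for 27, with a median of -0.19. Homer1, the relative of Homer2 and Homer3 outside the set, had 20.4 to 45.1 normalized counts at 18 months, against 51.6 to 61.5 at 6 months. That difference (log2 change -0.89 ± 0.39, SE; limma adjusted p = 0.909) ran opposite to that of Homer2. Ppp1r9b, which encodes the spine protein spinophilin, had 149 to 167 normalized counts at 18 months and 88.5 to 142 at 6 months. The Arf exchange factor gene Iqsec1 had 36.3 to 94.7 at 18 months and 63.1 to 174 at 6 months, and Abi2, of the actin-regulating WAVE complex, had 144 to 214 at 18 months and 212 to 222 at 6 months.

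Of the 14 marker lists for cell types in hippocampus, 3 had sums that did not overlap between ages. Microglial markers summed to 1028.5, 983 and 1038 normalized counts at 18 months and 827, 788 and 709.9 at 6 months, with a fitted change above 0 for 11 of 12 genes. Blood cell markers summed to 98.0, 211 and 148 at 18 months and 52.5, 67.6 and 45.7 at 6 months, with a fitted change above 0 for 4 of 6 genes. The haemoglobin gene Hba-a1 lay wholly above, at 29.9 to 58.4 at 18 months and 5.43 to 7.54 at 6 months. So did the haemoglobin gene Hbb-bs, at 32.3 to 111 at 18 months and 10.7 to 26.9 at 6 months. Lyz2 lay wholly above too, at 31.1 to 35.8 at 18 months and 19.0 to 20.2 at 6 months. Mrc1, a macrophage receptor gene, was listed at 0 in every 18 month library and at 2.08 to 8.17 at 6 months. These genes were chosen after their values were seen. Markers of oligodendrocyte precursors summed to 383, 470.4 and 440.3 at 18 months and 485, 503 and 503 at 6 months, with a fitted change below 0 for 6 of 7. The sums of pan-neuronal, dentate granule, CA1, CA3 and CA2, and inhibitory neuron markers overlapped, as did those of astrocytes and oligodendrocytes. Single genes of these lists lay apart in both directions. Rbfox3 (184 to 275 at 18 months and 117 to 180 at 6 months), Thy1 and C1ql2 lay wholly above. The astrocyte marker Gjb6 also did, at 95.4 to 142 at 18 months and 43.2 to 66.5 at 6 months. Eno2 (609 to 673 at 18 months and 675 to 782 at 6 months) and Reln lay wholly below. An overlapping sum does not show that its genes were unchanged. The part of any of these cell types in the values above was not tested.

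Most of these genes had little or no RNA in the microglia libraries. Of the 37, 11 passed the count filter, and 14 had a count in every microglia library. A further 10 had 0 counts in all 6 libraries: Gria4, Grik1, Grik2, Grin2a, Grin2c, Grm2, Grm7, Grm8, Dlgap2 and Dlgap3. A count of 0 allows up to 3 counts, or 0.211 to 0.372 CPM on the unscaled totals of these libraries. This limit covers counting error alone, as reads copied by PCR and not marked by molecular identifiers are not independent. Per length, as the authors' TPM, Dlgap4 was highest with 83.1 ± 8.74 at 24 months and 92.8 ± 22.3 at 3 months. Dlg1 (32.8 ± 8.80 at 24 months and 26.6 ± 5.49 at 3 months) and Camk2a (41.0 ± 30.1 at 24 months and 18.0 ± 10.3 at 3 months) came next, in an order that their spread does not resolve (SD, n = 3 each). Homer3 had 4.63 ± 4.80 TPM at 24 months and 13.7 ± 5.68 at 3 months, and the other 33 genes averaged less over the 6 libraries.

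Between 24 and 3 month microglia, 0 of the 11 tested genes and 0 of all 10663 tested genes (0%) passed an adjusted p of 0.05 in edgeR's quasi-likelihood test, where the smallest adjusted p was 0.410. At an unadjusted p under 0.05 there were 1 of 11, Dlgap4, beside 590 of all genes (5.53%). Without replicate 3 of 24 months edgeR called 50 genes higher and 5 lower, none of them of this set. DESeq2 called 248 of 12394 genes (2%), among them 1 of the set, Dlgap4, and the authors' deposited table holds 243 of 12084 genes past it (2.01%), with 0 of the 17 genes of the set that had an adjusted p. The fitted log2 change was above 0 for 7 of the 11, with a median of 0.66; without replicate 1 of both ages, an alternative chosen after seeing the data, it was above 0 for 5 and the median was -0.09. Dlgap4 and Homer3 lay wholly below at 24 months, beside 6.18% of all genes, and Shank1 lay wholly above, beside 7.26%; together they are 27.3% of the 11, beside 13.4% of all genes. In TPM none of these 3 genes lay apart, and Dlg3 alone of the 11 did, with 0.0433, 0.333 and 1.98 TPM at 24 months and 4.41, 3.46 and 2.59 at 3 months.

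**Figure D4:**
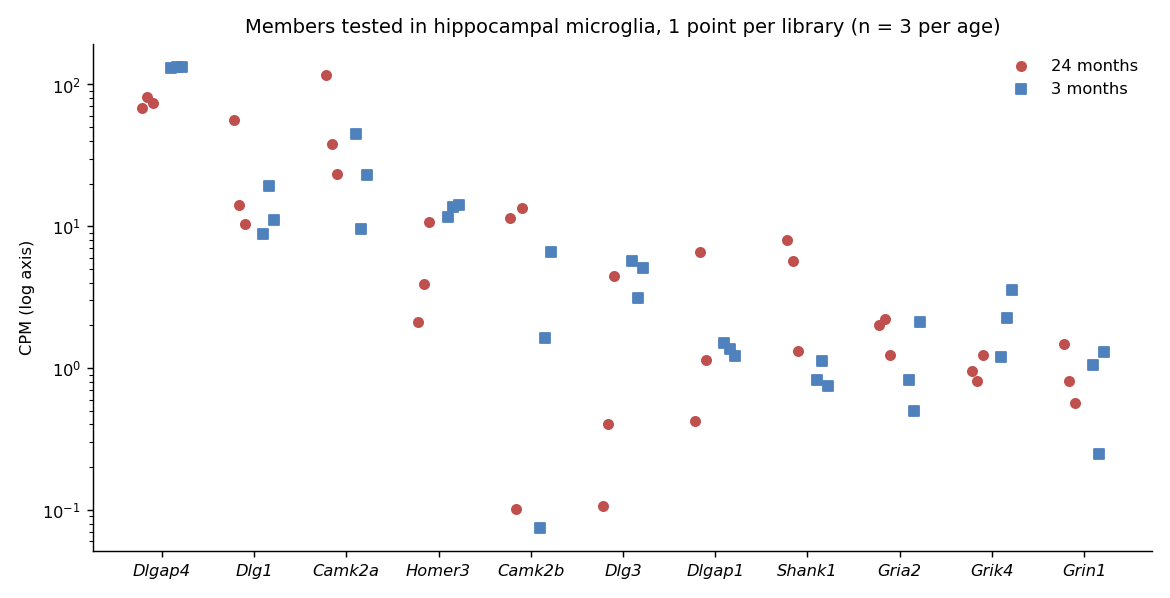
CPM (log axis) of the 11 genes tested in microglia, with 1 point per library, 24 months as red circles and 3 months as blue squares. Dlgap4 forms tight and separate groups, while Camk2a, Camk2b, Dlg1 and Dlg3 spread widely within an age.

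Dlgap4 encodes the scaffold protein SAPAP4, and of this set it was the gene with most RNA in microglia. It had 68.4, 81.4 and 74.0 CPM at 24 months, against 131, 132 and 133 CPM at 3 months, each on the scaled library size. The spread was small within both ages, and the log2 change was -0.82 ± 0.23 (SE; edgeR adjusted p = 0.629). The average transcript length that the authors give for Dlgap4 moved with it, at 1004, 1281 and 1429 bases at 24 months and 2652, 1709 and 1827 bases at 3 months, without overlap. Lengths at 24 months lay wholly below for 5.03% and wholly above for 2.54% of all tested genes, and 1.38% of them had a log2 length ratio as low as the -0.74 of Dlgap4. In TPM, which divides by that length, Dlgap4 had 88.6, 87.6 and 73.0 at 24 months and 67.0, 105 and 107 at 3 months, with overlap. With the length as an offset in edgeR the log2 change was -0.13 (adjusted p = 0.998), and in the authors' deposited table it was -0.14 with a standard error of 0.288. In whole hippocampus Dlgap4 overlapped, with 146, 93.1 and 65.5 normalized counts at 18 months and 92.2, 104 and 67.6 at 6 months.

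**Figure D5:**
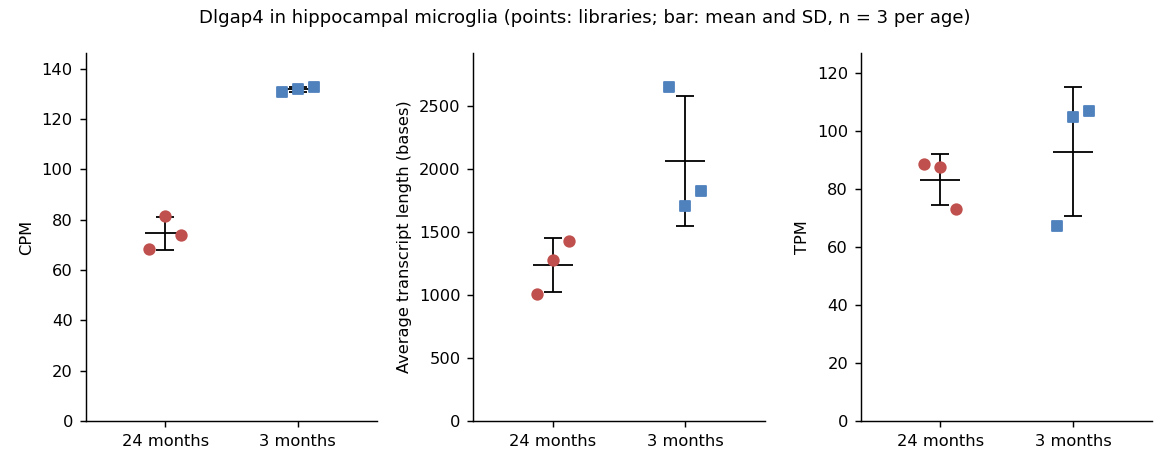
Dlgap4 in the 6 microglia libraries as CPM, as average transcript length in bases and as TPM, with 24 months left (red circles) and 3 months right (blue squares); bars show mean and SD (n = 3). CPM and length are both lower at 24 months without overlap, while TPM overlaps.

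Homer3 had 2.12, 3.93 and 10.6 CPM at 24 months, against 11.7, 13.6 and 14.025 at 3 months. All 24 month libraries were lower, but replicate 3 was close to the 3 month values (log2 change -1.24 ± 1.08, SE; edgeR adjusted p = 0.993). In TPM the ages overlap, at 1.25, 2.52 and 10.1 at 24 months and 7.23, 17.7 and 16.3 at 3 months. The log2 change of Homer3 was -1.57 with the length offset and -2.14 without replicate 3 of 24 months. Shank1 had 7.94, 5.65 and 1.33 CPM at 24 months and 0.821, 1.12 and 0.749 at 3 months. Its highest library had 74.5 estimated counts, and the log2 change was 2.46 ± 1.15 (SE; edgeR adjusted p = 0.931), or 1.20 with the length offset.

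Camk2a had 117, 38.2 and 23.4 CPM at 24 months and 44.6, 9.60 and 23.1 at 3 months, which overlap (log2 change 1.20 ± 0.80, SE, or 0.25 without replicate 1 of 24 months and 1.85 without replicate 1 of 3 months). Dlg1 had 56.5, 14.02 and 10.4 CPM at 24 months and 8.81, 19.3 and 11.1 at 3 months. The highest value of both genes was in replicate 1 of 24 months, and without replicate 1 of both ages the log2 change of Dlg1 was -0.31 in place of 1.05. Gria2, Grin1 and Grik4, the receptor subunits that passed the filter, stayed between 0.249 and 3.54 CPM and overlapped.

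Several genes were seen in single libraries. Grik5 had 71 counts and Shank3 15 counts, both in replicate 1 of 24 months and in no other library. Grm3 had 68 counts in replicate 2 of 24 months, 10 in replicate 3, and 2 counts in all in the 3 month libraries. Pan-neuronal markers summed to 12.9, 25.1 and 10.3 CPM at 24 months and 6.6, 10.7 and 3.2 CPM at 3 months, which overlap. Of these 12 markers 2, Tubb3 and Nefh, were at 0 in every library, and the others had counts in some. Rbfox3 had 4 to 43 estimated counts at 24 months and 0 at 3 months. Thy1 had 0 at 24 months and up to 89.2 at 3 months. Microglial markers summed to 68743 to 88497 CPM at 24 months and 86162 to 91887 at 3 months, and all 12 were tested. Sums of astrocyte markers (419 to 562 CPM at 24 months and 213 to 366 at 3 months), endothelial and mural markers (60.6 to 178 at 24 months and 23.7 to 45.1 at 3 months) and blood cell markers (740.0 to 2692.5 at 24 months and 242 to 423 at 3 months) did not overlap between ages. Among blood cell markers, Lyz2 alone had 680 to 1059 CPM at 24 months and 231 to 409 at 3 months. S100a8 ran from 4 to 12179 estimated counts within 24 months, and Hba-a1 had a lower mean at 24 months (2.99 against 10.3 CPM). The fitted change was above 0 for 3 of 4 tested blood cell markers. For astrocyte markers it was above 0 for all 5 tested, and 2 lay wholly above. Slc1a3 had 285 to 384 CPM at 24 months and 110 to 246 at 3 months. Aldoc had 18.0 to 44.3 CPM at 24 months and 0.149 to 10.8 at 3 months. The part of these cell types in the microglia values was not tested.

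The other synaptic lists gave 0 calls in microglia with edgeR, and 2 of 22 tested scaffold and adhesion genes, Cask and Tanc2, had an unadjusted p under 0.05, beside 5.53% of all tested genes. The list holds 42 genes, and the fitted change was above 0 for 16 of the 22. Cask, a scaffold kinase that many cell types use, had 102 ± 12.0 CPM at 24 months and 47.1 ± 8.22 at 3 months, without overlap (log2 change 1.11, edgeR adjusted p = 0.629). Tanc2, another scaffold gene, had 518 ± 231 at 24 months and 278 ± 27.2 at 3 months. Akap5, which encodes a kinase-anchoring protein, had 20.8 ± 11.8 at 24 months and 6.68 ± 3.62 at 3 months (SD, n = 3 each). The fitted change was above 0 for 13 of 20 tested kinases, phosphatases and calcium signalling genes, for 5 of 7 genes of glutamate supply and clearance, and for 1 of 2 auxiliary subunits.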

How the data were processed

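Per the labels' protocols, cDNA was made from 5 ng of Trizol-isolated RNA with oligo-dT priming and template switching, amplified in 12 PCR cycles and tagmented; no molecular identifier or strand-keeping step is named, so overlapping antisense transcripts cannot be told apart. The tools kallisto, DESeq and DESeq2 and the builds GRCm39 and mm10 are named, without versions or roles, in the submitters' processing notes. For microglia the authors deposited TPM, average transcript lengths and estimated counts for every gene, per the file headers. For each tissue the authors deposited p-values, a Wald score, log2 fold changes with standard errors, and normalized counts, which are a signal scaled between samples; the hippocampus log2 values, 6 over 18 months as judged from their own columns, were turned to 18 minus 6 months. Entries without a gene name (0.0233% to 0.0335% of the hippocampus signal, 0.0546% to 0.0771% of microglia counts) were left out.

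The hippocampus table holds normalized counts only, so limma 3.58.1 (R 4.3.3) with a mean trend was run on log2(normalized count + 1) for genes that reached 1 in 3 or more samples. On this scale fold changes can understate those of low genes, but for genes listed at 0 in some libraries they can also be larger or turn sign. Grik1 had a fitted log2 change of -1.55, with means of 11.1 normalized counts at 18 months and 10.5 at 6 months. The authors' deposited table gives 0.12 for Grik1. Shank3 had 0.97 in limma and -0.03 in that table. Microglia estimated counts were rounded and tested with edgeR 4.0.16 (quasi-likelihood, TMM, filterByExpr); CPM use the TMM-scaled library size. Tests were two-sided, with Benjamini-Hochberg adjustment over all genes of a table and a threshold of 0.05. The scripts were checked on simulated data. Alternatives were other scalings, filters and pseudocounts, DESeq2 1.42.0, a transcript length offset, a replicate block and leaving out each library. The labels do not say whether replicate numbers pair the samples, and the main fits did not pair them. Gene positions and transcript lengths are from the GENCODE vM21 annotation (GRCm38).

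The 37 genes and all lists were chosen with earlier results of these data known. Values per sample are given for genes whose age groups do not overlap, the gene of each family with the highest level per length, genes of the ratios, and up to 4 genes with the smallest p of each other list; Grik1, Grik5, Grm3, Grm4, Grin2d and Shank3 are also named for their zeros, after their values were seen. Some genes that this rule takes are not reported here.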

Additional observations from a re-analysis of the deposited data

How the results depend on the processing

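Direction and side of the threshold held for 208 of 212 values of single genes under the alternative settings. In hippocampus the filters, the trend and the replicate block leave a gene's fitted change as it is, so direction could not turn there. With 0 genes past the threshold in the main fits, the side could change only by a gene passing. Grin2a turned to -0.060 with a pseudocount of 5 and Camk2b to -0.0026 with TMM rescaling, both in hippocampus. Dlg1 in microglia turned to -0.31 without replicate 1 of both ages. Dlgap4 in microglia passed the threshold with DESeq2 (-0.84). In hippocampus, 2 of the set lay wholly above with a filter of at least 10, and limma without a trend called 1 gene lower. In microglia, DESeq2 called 192 genes higher and 56 lower and 1 of the set, and the fitted change was above 0 for 16 of 27 genes with DESeq2 and for 16 of 27 with no filter on low counts, where more genes are tested. With the length offset 0 genes lay wholly above and 1 below, with a median log2 change of 0.32. Without replicate 1 of both ages 2 genes lay above and the median was -0.091. The shares of all genes lying apart under these settings were not computed.

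Leaving out each hippocampus library in turn, limma called 0 to 1 gene higher (1 without replicate 1 of 6 months) and 0 lower, 12 to 19 of the set had a fitted change above 0, 4 to 5 lay above and 3 to 5 below, and the median ran from -0.12 to 0.038. In microglia, edgeR called 0 to 50 genes higher and 0 to 5 lower (50 and 5 without replicate 3 of 24 months), 6 to 7 of the set had a fitted change above 0, 1 to 2 lay above and 2 to 4 below, and the median ran from 0.073 (without replicate 1 of 24 months) to 0.70. With each library left out, 0 of the set passed in either tissue. Fewer libraries come apart more easily, and the shares of all genes lying apart were not computed for these fits. The ratio differences ran from 0.21 to 0.33 for Gria1 over Gria2, 0.19 to 0.30 for Camk2a over Camk2b, -0.64 to 0.062 for Dlg4 over Dlg1 and -0.65 to -0.17 for Grm5 over Grm3. In hippocampus the changes of Camk2b (-0.059 to 0.074), Dlg1 (-0.49 to 0.23), Dlg2 (-0.22 to 0.027), Dlgap1 (-0.066 to 0.028), Gria1 (-0.020 to 0.095), Grid1 (-0.75 to 0.20), Grik4 (-0.40 to 0.070), Grin2a (-0.39 to 0.67), Grm3 (-0.34 to 0.067) and Homer3 (-0.62 to 0.059) took both signs, as did those of Dlg1 (-0.10 to 1.42) and Grin1 (-0.34 to 0.51) in microglia; the cause was not tested. Those of Dlg4 (-0.69 to -0.24), Grin1 (0.039 to 0.26), Grm5 (-0.60 to -0.32) and Shank1 (0.035 to 0.42) in hippocampus, and Gria2 (0.30 to 1.42) and Grik4 (-1.53 to -0.78) in microglia, kept their sign.

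Deviations of same-numbered libraries from their group means correlated at 0.0117, 0.00941 and 0.0142 in hippocampus and 0.0649, 0.0117 and -0.027 in microglia, and the libraries did not all correlate best with their own number. With the replicate block 0 of the set passed in either tissue, and the microglia median was 0.29. The block changed no other count by more than 1.5 times. It could not change the counts of genes lying apart in either tissue, nor the fitted directions in hippocampus.

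Depth limits what microglia can show: 14 of the 37 genes never passed 3 counts in a library, and in hippocampus the depth in reads is unknown.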
